A study of Mus musculus with 12 samples.

Results

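The clustered histone genes of the mouse were followed in RNA sequencing of the cerebral cortex and the hippocampus of mice that lack telomerase reverse transcriptase (Tert). They were taken as the protein-coding genes whose symbol in the GENCODE M21 annotation of GRCm38 starts with Hist1h, Hist2h, Hist3h or Hist4h and whose mean reached 3 normalized counts over the 6 libraries of either tissue. The rule kept 58 of the 67 genes with such a symbol, out of 55487 gene rows in each table. There were 4 linker histone H1 genes, 16 H2A genes, 17 H2B genes, 8 H3 genes and 13 H4 genes. The large cluster on chromosome 13 (Hist1) held 48 of them, the cluster on chromosome 3 (Hist2) held 7, the pair on chromosome 11 (Hist3) held 2, and Hist4h4 on chromosome 6 stood alone. Just inside the rule, Hist1h3i, Hist1h2ab and Hist1h4f had means of 3.68, 3.76 and 3.81 normalized counts in the tissue where they were higher. Just outside it, Hist1h1t, Hist1h3h and Hist1h1a had 2.62, 2.76 and 2.78.

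The 12 libraries form 4 groups of 3: cortex and hippocampus from mice with the genotype mTert KO (G1), called knockout or KO, and cortex and hippocampus from mice with the genotype mTert WT, called wild type or WT. All mice were of the strain C57BL/6, and the labels give neither their age nor what G1 stands for. The labels do not tie libraries to single animals, and a p-value here therefore speaks only of how far the libraries of a group scatter, part of which may be technical. Each library was total RNA, and the labels do not say whether RNA with a poly(A) tail was selected or whether the libraries kept strand.

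Clustered histone genes supply the histones that package newly copied DNA. The core histones H2A, H2B, H3 and H4 form the nucleosome, and the linker histone H1 binds where DNA enters and leaves it. Most of these genes have no intron, and in dividing cells their mRNA ends, without a poly(A) tail, just after a short stem-loop that the stem-loop binding protein Slbp holds. Cells that have stopped dividing, such as neurons, draw mainly on replacement variants encoded elsewhere in the genome, and some clustered genes also make longer transcripts with a poly(A) tail in differentiated tissue.

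The stem-loop is shown first because it divides these genes by how their annotated 3′ ends relate to it. The letters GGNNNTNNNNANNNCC with pairing bases in both arms of the stem were found, on the transcript strand, in annotated transcripts of 42 of the 58 genes, against 3.39% of 58797 annotated protein-coding transcripts. The sites of 8 genes are printed 5′ to 3′ in DNA letters, with the match in capitals. They are those of the genes that the results turn on, and of Hist1h2ag, whose annotated transcript stops shortly after the site.
Hist1h1c: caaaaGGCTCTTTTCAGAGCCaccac
Hist1h1e: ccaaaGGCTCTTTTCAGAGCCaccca
Hist1h2be: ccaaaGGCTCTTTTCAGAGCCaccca
Hist2h3c2: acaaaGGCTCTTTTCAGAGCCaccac
Hist3h2a: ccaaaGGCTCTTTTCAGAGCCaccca
Hist1h4h: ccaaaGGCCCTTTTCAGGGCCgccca
Hist2h4: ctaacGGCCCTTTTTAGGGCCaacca
Hist1h2ag: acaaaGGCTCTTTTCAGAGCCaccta
The first form, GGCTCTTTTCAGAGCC, was found in 24 genes of types H1, H2A, H2B and H3, and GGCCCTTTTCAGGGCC in 7 H4 genes. Hist2h4 and Hist1h4i shared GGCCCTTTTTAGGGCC. In 20 genes every annotated transcript with a match ended within 100 bases of it, as for Hist1h2ag with 23 bases and Hist1h4h with 46 bases. In 22 genes the annotation ran further, by 840 bases in Hist1h1c, 1257 bases in Hist2h4, 1643 bases in Hist3h2a and 1861 bases in Hist1h2be. The 100-base limit was chosen after the distances were seen. No match was found in the annotated transcripts of the other 16, among them Hist1h2bc and Hist2h2be.

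Most H2A and H2B genes lie head to head and share the short stretch between their starts. Hist1h2ac and Hist1h2bc start 251 bases apart on chromosome 13, and the RefSeq promoter of Hist1h2ac (GRCm38.p6, chr13:23683910-23684209, minus strand, from 250 bases before its start to 50 after) spans that stretch. The promoter of Hist3h2a (GRCm38.p6, chr11:58954435-58954734, plus strand) is printed beside it, because Hist3h2a was the histone gene that fell in cortex. Capitals mark TATAAA, known as the TATA box, the letters CCAAT, and the octamer ATTTGCAT, each searched on both strands.
Hist1h2ac: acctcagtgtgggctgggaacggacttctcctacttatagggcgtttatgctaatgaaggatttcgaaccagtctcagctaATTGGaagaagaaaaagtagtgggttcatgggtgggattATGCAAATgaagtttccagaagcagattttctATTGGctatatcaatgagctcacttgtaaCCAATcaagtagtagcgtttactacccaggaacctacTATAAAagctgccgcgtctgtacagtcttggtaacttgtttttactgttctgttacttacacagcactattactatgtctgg
Hist3h2a: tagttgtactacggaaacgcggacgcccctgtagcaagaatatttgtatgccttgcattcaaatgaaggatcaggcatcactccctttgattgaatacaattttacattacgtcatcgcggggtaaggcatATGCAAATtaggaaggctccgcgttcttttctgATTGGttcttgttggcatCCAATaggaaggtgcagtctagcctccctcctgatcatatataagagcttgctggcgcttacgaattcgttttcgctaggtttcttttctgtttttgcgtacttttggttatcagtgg
A RefSeq promoter was at hand for 54 of the 58 genes, matched through their older symbols. CCAAT was found in all 4 H1, 16 H2A, 15 H2B and 7 H3 promoters and in 3 of 12 H4 promoters, against 37.4% of all 32851 promoters of the same length. ATTTGCAT was found in 6 of 16 H2A and 5 of 15 H2B promoters and in no H1, H3 or H4 promoter, against 1.74% of all promoters. TATAAA was found in 32 of the 54, against 13.6%. Head-to-head partners share part of their windows, so their matches are not independent, and a match is a description of letters only.

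Tert, the gene removed, had 0 normalized counts in all 3 KO cortex libraries, against 206, 105 and 241 in WT cortex (chromosome 13, 73626911 to 73649843, plus strand). In hippocampus it had 0, 6.31 and 0 in KO, against 147, 184 and 128 in WT. The target gene thus fits the genotype label of every library. Read totals lay between 68424934 and 86639113 per library, and the libraries saw 54 to 58 of the 58 histone genes above 0. In cortex WT library 2 stood apart. It differed from the other WT cortex libraries by a chi-square of 93.9 and 102 per gene, where libraries 1 and 3 differed by 9.54. WT hippocampus libraries also differed unevenly, by 48.8 for libraries 1 and 2, 20.4 for 2 and 3 and 15.5 for 1 and 3. KO hippocampus libraries differed by 10.9 to 15.6. In hippocampus the 6 hippocampus markers summed to 86791 to 92687 in KO and 98486 to 114539 in WT. In cortex they summed to 15593 to 15926 in KO and 18346 to 19348 in WT. The 6 cerebral cortex markers summed to 66219 to 66718 in KO cortex and 56889 to 59449 in WT cortex. In hippocampus they summed to 15774 to 16554 in KO and 15008 to 15268 in WT. Both lists thus separated the tissues, but within each tissue KO and WT did not overlap in either list. Among markers of neighbouring tissue, the summed level of 10 striatal neuron markers was 41611 to 66558 in KO cortex, above the 18580 to 19141 in WT cortex. All 10 striatal markers were positive in cortex, with a median log2 fold change of 1.57. In cortex 9 of them were called higher, against 1.28% of all genes. In hippocampus 2 of them were called lower and 2 higher, with a median of -0.03. The sum of 10 choroid plexus markers was 9463 to 18877 in KO hippocampus and 13109 to 358933 in WT hippocampus, which overlap. All 10 had negative fold changes there, with a median log2 fold change of -2.57, and 1 was called, lower. In cortex their sum was 2650 to 11656 in KO, above the 1577 to 1867 in WT. All 10 were positive in cortex, with a median of 0.76, and 1 was called, higher. Their part in the histone results was not tested. In whole tissue, fewer cells of a type and less RNA per cell cannot be told apart.

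The clustered histone transcripts of these brains were dominated by 5 genes. Hist3h2a (H2A), Hist1h2bc, Hist3h2ba and Hist2h2be (all H2B) and Hist1h1c (H1) together held 74.6% of the summed level of the 58 genes in cortex and 71.7% in hippocampus. All members together came to 61.4 to 111 CPM in the cortex libraries and 103 to 147 CPM in the hippocampus libraries. By type, H2B genes held 51.0% of the sum in cortex and 49.7% in hippocampus, H2A genes 24.7% and 21.6%, H1 genes 15.1% and 17.9%, H4 genes 5.11% and 5.63%, and H3 genes 4.10% and 5.15%.

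Scaled to exon length, the highest members were Hist3h2ba and Hist1h2bc. Hist3h2ba, an H2B gene on chromosome 11, averaged 1167 normalized counts per kb over the 6 cortex libraries and 1540 over the 6 hippocampus libraries. Hist1h2bc averaged 856 per kb in cortex and 1551 in hippocampus. Hist3h2a followed with 571 and 818 per kb, and Hist1h1c, which encodes the linker histone H1.2, with 492 and 986. The Hist2h3 copies Hist2h3c2 and Hist2h3c1, which encode H3, had 115 and 46.6 per kb in cortex and 254 and 97.6 in hippocampus. Among H4 genes, Hist1h4k had 102 and 257 per kb, Hist1h4h 80.2 and 169, Hist1h4i 76.8 and 184, and Hist2h4 64.2 and 76.0. The median member was far lower: per type it lay between 7.40 and 41.9 per kb in cortex and between 8.65 and 85.0 in hippocampus. In cortex 29 of the 58 genes averaged under 10 normalized counts and together held 2.59% of the sum, and in hippocampus 17 did and held 1.02%.

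The 22 genes annotated over 100 bases past the stem-loop carried most of this signal, with 66.4% of the member sum in cortex and 65.5% in hippocampus. Their annotated ends vary, from 108 bases past it in Hist1h4a and 169 in Hist3h2ba to 4884 in Hist1h1d. The 20 genes that end near the stem-loop held 4.55% and 4.63%. The 16 genes without a match held 29.1% and 29.9%, most of it from Hist1h2bc and Hist2h2be. Per kb of exon the median levels were 19.8 in the first class, 14.1 in the second and 14.3 in the third in cortex, and 39.6, 26.9 and 21.0 in hippocampus.

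Reads of near-identical copies can be split or lost in counting, so the share of sequence that each gene has to itself was measured as the share of its 50-base windows found in no transcript of a gene at another place. The median gene had 94.8% of such windows among H1 genes, 60.5% among H4, 55.9% among H2B, 42.8% among H3 and 27.0% among H2A. Hist2h2be had 100%, Hist2h4 99.0%, Hist3h2a 98.0%, Hist1h2be 93.7% and Hist1h1c 91.5%. Hist1h2ao with 6.50%, Hist2h2aa1 with 3.72% and Hist1h2bq with 2.68% are uncertain. Across the 58 genes the level per kb, on the log2 scale, correlated weakly with the share of unique windows (Pearson r 0.20 in cortex and 0.23 in hippocampus); all these points share the same libraries. Exons of 20 of the 58 genes also overlap another annotated gene model.

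In 11 head-to-head pairs with starts within 1000 bases, the H2B gene was usually the higher partner. It had the higher mean level per kb in 9 of 11 pairs in cortex and in 9 of 11 in hippocampus, and was higher in all 6 libraries in 8 and 7 pairs. The median H2B to H2A ratio of the levels per kb was 4.45 in cortex and 3.72 in hippocampus. Per kb, Hist1h2bc exceeded Hist1h2ac, with which it shares the promoter shown above, 55.2 times in cortex and 37.7 times in hippocampus. At the other end, Hist1h2br had 0.682 and 0.644 of the level per kb of Hist1h2ap, and both of these genes have few windows of their own. These ratios depend on annotated exon length, 1156 bases in Hist1h2bc, 2482 in Hist1h2ac, 2212 in Hist1h2br and 482 in Hist1h2ap. Unscaled, Hist1h2bc averaged 989 normalized counts and Hist1h2ac 38.4 in cortex. Hist1h2br averaged 21.2 there and Hist1h2ap 6.76, so that H2B gene was the higher without scaling. The H2A partner had the smaller share of unique windows in 7 of 11 pairs. Counted per unique window, the H2B gene was the higher in 9 pairs in cortex and 8 in hippocampus.

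**Figure D1:**
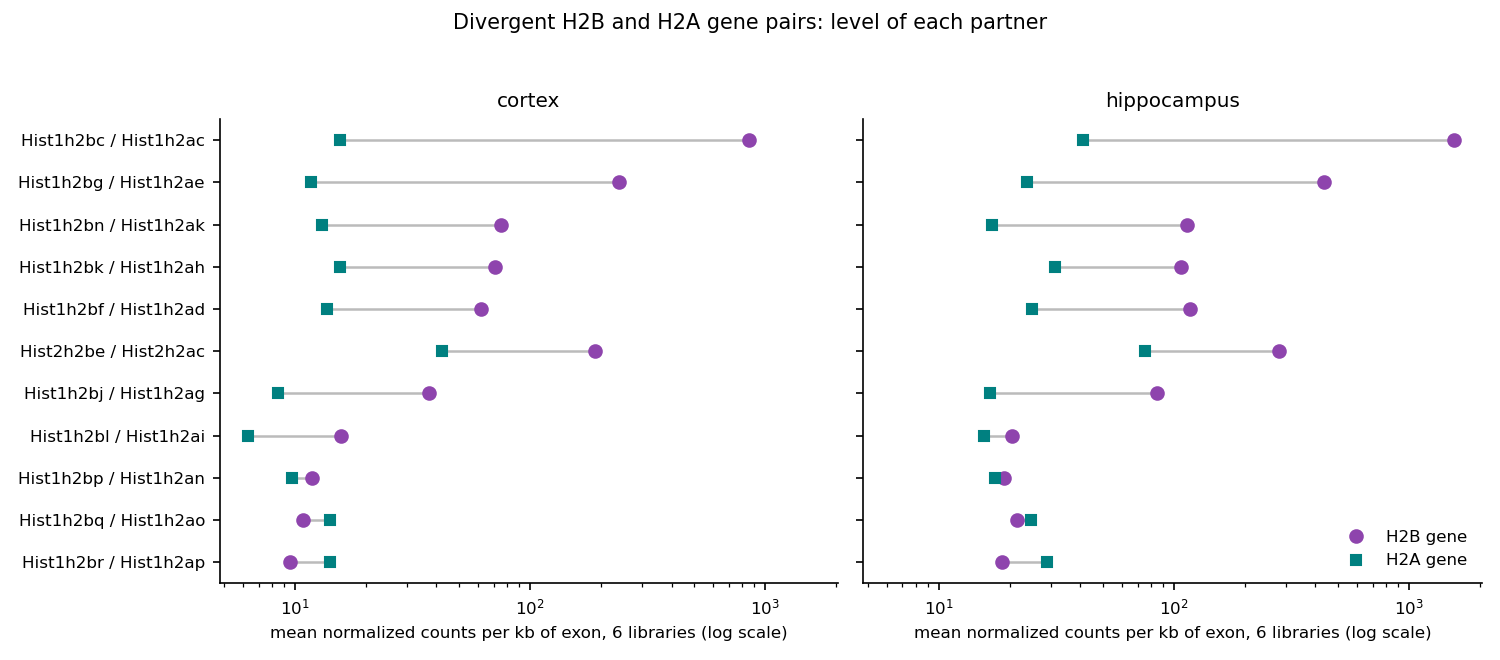
Mean normalized counts per kb of exon over the 6 libraries of each tissue (log scale) for the 11 head-to-head pairs, H2B genes as circles and H2A genes as squares. The H2B gene lies to the right in 9 of 11 pairs in each tissue, and Hist1h2bc and Hist1h2ac are the farthest apart.

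The first comparison asks which histone genes differ between KO and WT cortex. One gene fell in KO cortex, Hist3h2a, an H2A gene on chromosome 11 (58954685 to 58956830, plus strand), by 1.00 on the log2 scale. Most of the other tested histone genes lay below WT without passing the test. Counting Hist3h2a, 26 of 29 had a negative log2 fold change, against 52.1% of all genes tested. Among short protein-coding genes the share was higher, 74.3% with up to 1 kb of exon and 70.4% with 1 to 2 kb. Genes averaging 10 normalized counts or more over the tissue's libraries were tested with limma on log2(normalized count + 1), fold changes are on that scale, and a gene was called where the Benjamini-Hochberg adjusted p over all genes was below 0.05. Of the 58 members 29 passed the filter, 1 was called lower and 0 higher, against 1.94% of all 21945 genes tested, 0.661% lower and 1.28% higher. The median log2 fold change of the 29 was -0.33, against -0.01 over all genes. An unadjusted p below 0.05 by limma was found in 6 of the 29 and in 4040 of all 21945 genes, a similar share. In 11 of the 29 all KO libraries lay below all WT libraries and in 0 above, where 12.2% of all genes lay wholly below and 16.0% wholly above.

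Hist3h2a had 780, 805 and 837 normalized counts in KO cortex, against 1327, 2034 and 1573 in WT cortex. The KO libraries lay close together and all below the lowest WT library, WT library 1. On the log2 scale the level in KO cortex fell by 1.00 ± 0.15 relative to WT (SE, limma, adjusted p = 0.0299, n = 3 each). In hippocampus the gene had 1521, 1941 and 1497 in KO and 1858, 1992 and 1727 in WT, which overlap, and its log2 fold change was -0.18 ± 0.11 (limma, adjusted p = 0.251). The cortex call was lost in 7 of 15 alternatives, among them when any KO library or WT library 3 was left out, with adjusted p-values up to 0.171.

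Hist3h2a shares its first bases and its strand with Trim17, a ubiquitin ligase gene that starts at the same position. Trim17 had 1175, 1295 and 1252 normalized counts in KO cortex, against 1133, 524 and 741 in WT cortex, so it lay above WT where Hist3h2a lay below. Added together, both genes had 1955, 2100 and 2089 in KO cortex, against 2460, 2558 and 2314 in WT cortex, still without overlap but closer than Hist3h2a alone. In hippocampus the sum was 2938, 2736 and 2791 in KO, against 3131, 3367 and 3175 in WT. How reads were divided between the overlapping models was not tested, and the size of the Hist3h2a difference is uncertain for that reason.

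**Figure D2:**
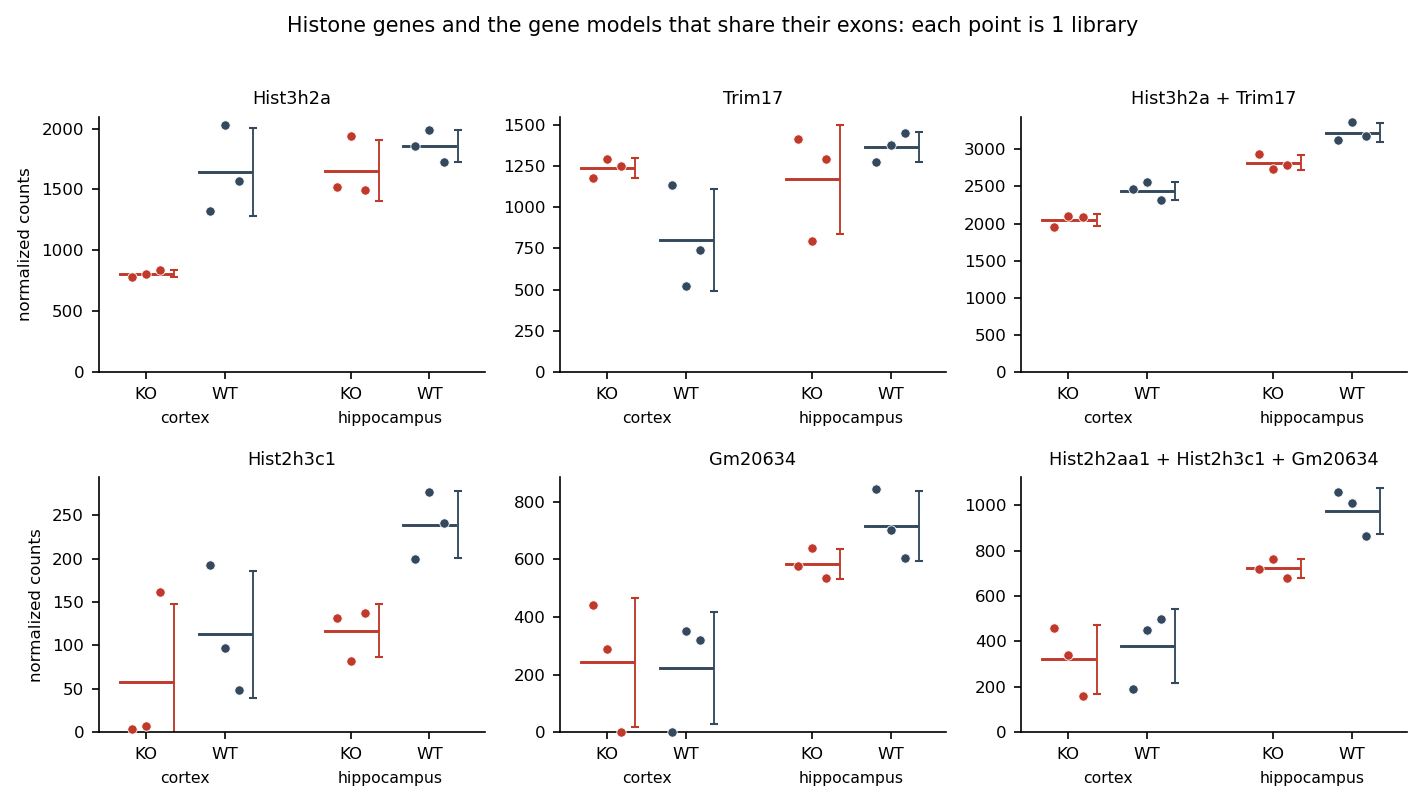
Normalized counts per library of Hist3h2a and Trim17, which share exons, with their sum. Below are Hist2h3c1 and Gm20634, which also share exons, with their sum together with Hist2h2aa1. Lines are means and error bars SD (n = 3), KO left of WT. Hist3h2a and Trim17 lie on opposite sides in cortex and their sum keeps KO below WT. In cortex Hist2h3c1 scatters from 3.76 to 192 and Gm20634 from 0 to 441.

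Members of the other types in cortex had values below WT that did not pass the test. Hist2h2be, an H2B gene with 100% unique windows, had 427, 356 and 442 normalized counts in KO cortex, against 518, 630 and 593 in WT cortex. Its groups do not overlap, with a log2 fold change of -0.51 ± 0.12 (limma, adjusted p = 0.0961). Hist1h2bc had 798, 866 and 839 in KO cortex and 962, 1450 and 1020 in WT cortex, again without overlap but with WT library 2 far above the rest. Its log2 fold change was -0.43 ± 0.15 (limma, adjusted p = 0.206). Both were called lower when WT cortex library 2, the library that stands apart, was left out, which took the count of called members to 3.

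Hist3h2ba had 630, 603 and 671 normalized counts in KO cortex and 716, 995 and 682 in WT cortex, with a log2 fold change of -0.31 ± 0.15 (limma, adjusted p = 0.322). Hist1h1c, the main H1 gene, had 714, 730 and 623 in KO cortex and 792, 970 and 775 in WT cortex, -0.29 ± 0.12 (limma, adjusted p = 0.245). In both genes the KO libraries lay below all WT libraries, by small gaps. Hist1h4h had 32.9, 17.6 and 30.0 in KO cortex and 50.5, 50.1 and 45.0 in WT cortex, -0.88 ± 0.29 (limma, adjusted p = 0.181). Hist1h4i, another H4 gene, had 64.9, 39.3 and 57.8 in KO and 45.6, 70.1 and 57.4 in WT, which overlap.

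Summed by type, KO cortex lay below WT cortex most clearly in H2A. The 16 H2A genes summed to 917, 964 and 928 normalized counts in KO cortex, against 1471, 2184 and 1848 in WT cortex, a ratio of means of 0.510. Hist3h2a made up 88.5% of that sum, and without it the other 15 H2A genes had 137, 159 and 90.9 in KO cortex and 145, 150 and 276 in WT cortex, which overlap. The sums of H1, H2B and H4 genes, like that of all H2A genes, were lower in every KO library than in any WT library, with ratios of 0.811, 0.757 and 0.758. H3 genes had 131, 141 and 305 in KO cortex and 330, 263 and 212 in WT cortex, which overlap. All 58 genes summed to 4500, 4574 and 4752 in KO cortex, against 5919, 7707 and 6270 in WT cortex, a ratio of 0.695, and of 0.762 without Hist3h2a.

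**Figure D3:**
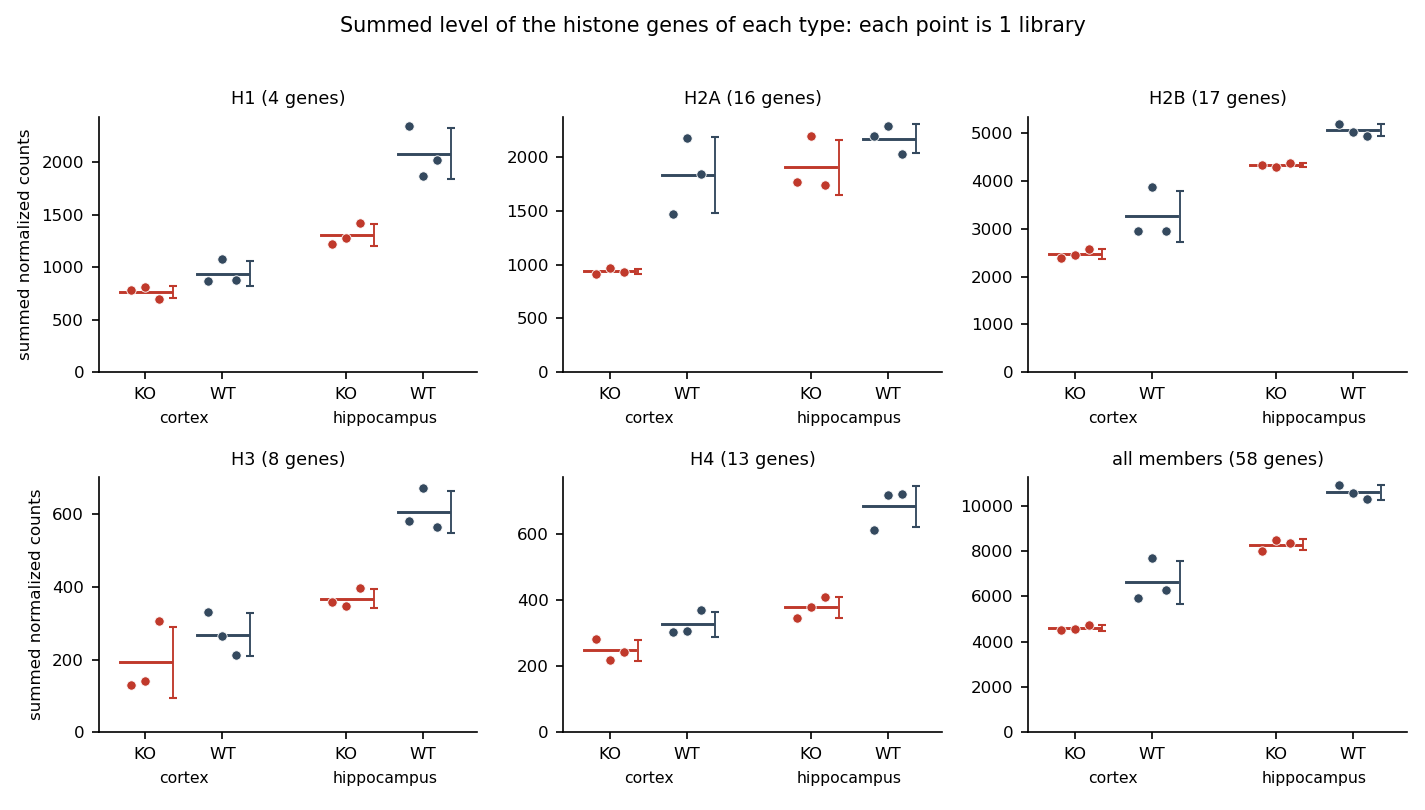
Summed normalized counts of the histone genes of each type per library, with the mean as a line and the SD as an error bar (n = 3), KO left of WT in each tissue. KO libraries lie below all WT libraries except for H3 in cortex and H2A in hippocampus; WT cortex library 2 is the highest of its group in H1, H2A, H2B and the sum.

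The same question in hippocampus gave 9 genes, all lower in KO hippocampus: Hist2h4 and Hist1h4h (H4), Hist2h3c1 and Hist2h3c2 (H3), Hist1h1c and Hist1h1e (H1), and Hist1h2be, Hist1h2bc and Hist2h2be (H2B). No H2A gene was among them and no histone gene rose. Of the 58 members 41 passed the filter, and 9 were called lower, where 29.2% of all 22337 genes tested were called, 15.1% lower and 14.1% higher. That is 22.0% of the 41. The median log2 fold change of the 41 was -0.31, against 0.02 over all genes, and 37 of the 41 were negative, against 48.0% of all genes. An unadjusted p below 0.05 by limma was found in 11 of the 41. Over all 22337 genes it was found in 9228, a larger share. In 18 of the 41 all KO libraries lay below all WT libraries and in 0 above, where 21.5% of all genes lay wholly below and 24.3% wholly above.

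Gene length moved with the genotype difference in hippocampus. Of protein-coding genes with over 12 kb of exon, 71.0% were called lower and the median log2 fold change was -0.46. Of those up to 1 kb, 4.87% were called lower with a median of 0.04, and of those from 1 to 2 kb, 5.62% with a median of 0.07. The histone genes are short, with 312 to 7425 bases of exon and a median of 579, and 40 of the 58 have at most 1 kb. With the trend over exonic length taken out, 7 members were called lower, the median of the members was -0.18 and that of all genes 0.14. In cortex the short genes lay slightly below zero, with a median of -0.16 up to 1 kb and -0.11 from 1 to 2 kb.

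Hist2h4, an H4 gene on chromosome 3 (96261682 to 96263311, minus strand), showed the lowest fold change of the 41 members tested in hippocampus. It had 33.2, 40.6 and 47.4 normalized counts in KO hippocampus, against 175, 252 and 196 in WT hippocampus. Every KO library lay far below the lowest WT library. The log2 fold change was -2.33 ± 0.21 (SE, limma, adjusted p = 0.00021, n = 3 each), and it stayed called in all 17 alternatives run. In cortex Hist2h4 had 95.9, 94.2 and 73.8 in KO and 109, 88.2 and 166 in WT, which overlap, with a log2 fold change of -0.42 ± 0.26 (limma, adjusted p = 0.433). No other gene model overlaps Hist2h4, and its stem-loop, printed above, is followed by a long annotated 3′ end.

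Hist1h4h, the other H4 gene called, had 69.3, 56.8 and 60.0 normalized counts in KO hippocampus, against 91.6, 99.5 and 99.5 in WT hippocampus. All KO libraries lay below all WT libraries, and the log2 fold change was -0.64 ± 0.16 (limma, adjusted p = 0.0218). The call was lost in 5 of 17 alternatives, among them without KO library 2 or 3 or WT library 3, with adjusted p-values up to 0.0829. Hist1h4i had 116, 104 and 134 in KO hippocampus and 157, 144 and 148 in WT hippocampus, without overlap, at -0.35 ± 0.14 (limma, adjusted p = 0.104). All 10 tested H4 genes had negative fold changes with a median of -0.58, and 6 of them did not overlap. The H4 sum was 347, 379 and 411 in KO hippocampus, against 614, 718 and 722 in WT hippocampus, a ratio of 0.553. Without Hist2h4 the ratio was 0.709.

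The H3 genes of chromosome 3 fell as a pair. Hist2h3c2 (96238108 to 96239127, minus strand) had 194, 220 and 220 normalized counts in KO hippocampus, against 327, 322 and 272 in WT hippocampus, at -0.53 ± 0.11 (limma, adjusted p = 0.0117). Hist2h3c1 (96246685 to 96248509, plus strand) had 132, 82.1 and 137 in KO hippocampus, against 199, 277 and 241 in WT hippocampus, at -1.05 ± 0.22 (limma, adjusted p = 0.0115). In both genes the groups do not overlap, but the copies share much sequence: 36.5% of the windows of Hist2h3c2 and 65.3% of those of Hist2h3c1 are unique, so how reads split between them is uncertain. Added together with the third copy Hist2h3b, which is listed at 0 in every library, they had 326, 302 and 358 in KO hippocampus, against 526, 599 and 513 in WT hippocampus. Hist2h3c1 also shares its exons with the gene model Gm20634, and Hist2h3c1, Hist2h2aa1 and Gm20634 summed to 721, 763 and 680 in KO hippocampus, against 1056, 1009 and 862 in WT hippocampus, closer than Hist2h3c1 alone.

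In cortex Hist2h3c2 had 95.0, 108 and 123 normalized counts in KO and 107, 138 and 132 in WT, which overlap. Hist2h3c1 scattered widely, with 3.76, 7.24 and 162 in KO cortex and 192, 97.2 and 48.8 in WT cortex. Gm20634, which covers Hist2h3c1 and Hist2h2aa1 on the same strand, had 441, 288 and 0 in KO cortex and 0, 352 and 320 in WT cortex. Libraries listed at 0 for Gm20634, KO library 3 and WT library 1, were those with the highest Hist2h3c1 values. Hist2h2aa1, an H2A gene with 3.72% unique windows, had 15.0, 46.6 and 0 in KO cortex and 0, 0 and 129 in WT cortex. No direction can be read from Hist2h3c1 and Hist2h2aa1 in cortex.

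Of the linker histone genes, 2 of the 3 tested fell in KO hippocampus. Hist1h1c (chromosome 13, 23738808 to 23740367, plus strand) had 1112, 1179 and 1288 normalized counts in KO hippocampus, against 2174, 1665 and 1808 in WT hippocampus. All KO libraries lay well below WT, with a log2 fold change of -0.65 ± 0.10 (limma, adjusted p = 0.00342). Hist1h1e, which encodes H1.4, had 82.0, 69.5 and 95.7 in KO hippocampus and 116, 171 and 153 in WT hippocampus, at -0.82 ± 0.20 (limma, adjusted p = 0.0188), a call lost in 4 of 17 alternatives, among them without KO library 1 or 2 or WT library 3, with adjusted p-values up to 0.0748. Hist1h1d, the third tested H1 gene, had -0.66 without passing the test, and Hist1h1b was below the filter. The 4 H1 genes summed to 1215, 1274 and 1420 in KO hippocampus, against 2348, 1871 and 2019 in WT hippocampus, a ratio of 0.627.

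The 3 H2B genes called fell by less. Hist1h2be (chromosome 13, 23583670 to 23621124, minus strand) had 462, 428 and 415 normalized counts in KO hippocampus, against 600, 674 and 675 in WT hippocampus, at -0.58 ± 0.08 (limma, adjusted p = 0.00201). Its annotated exons overlap those of Hist1h1e on the same strand, so the split between these genes is uncertain; their sum was 544, 498 and 511 in KO hippocampus, against 716, 846 and 828 in WT hippocampus. Hist1h2bc had 1555, 1697 and 1655 in KO hippocampus, against 2126, 1844 and 1883 in WT hippocampus, at -0.25 ± 0.07 (limma, adjusted p = 0.0267). Hist2h2be had 674, 646 and 709 in KO hippocampus, against 824, 807 and 761 in WT hippocampus, at -0.24 ± 0.07 (limma, adjusted p = 0.0314).

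In each of the 3 H2B genes all KO libraries lay below all WT libraries. The calls of Hist1h2bc and Hist2h2be were lost in 7 and 8 of 17 alternatives, among them the removal of the length trend, with adjusted p-values up to 0.219 and 0.263. The call of Hist1h2bc was lost without any one KO library or WT library 3, and that of Hist2h2be without KO library 1 or 2 or any one WT library. Hist1h2be, Hist1h1c, Hist2h3c1, Hist2h3c2 and Hist2h4 were called in all 17. Hist3h2ba, an H2B gene about as high per kb there as Hist1h2bc, had 1008, 877 and 939 in KO hippocampus and 908, 1004 and 940 in WT hippocampus, which overlap, at -0.02 ± 0.07 (limma, adjusted p = 0.897).

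H2A genes gave no call in hippocampus with the settings used throughout. Hist1h2ak, which averaged under 10 normalized counts, was called lower with either other filter, with 1.95, 3.61 and 1.93 in KO hippocampus and 14.2, 8.56 and 9.52 in WT hippocampus, and Hist3h2a was called lower, at -0.30, without KO library 2 (limma, adjusted p = 0.0366). Of the 10 tested, 9 had negative fold changes, with a median of -0.32, and 1 did not overlap between the groups. Hist1h2ac, the second highest of them, had 113, 68.5 and 93.8 normalized counts in KO hippocampus and 124, 102 and 111 in WT hippocampus, at -0.31 ± 0.21 (limma, adjusted p = 0.304). The H2A sum was 1770, 2203 and 1744 in KO hippocampus and 2199, 2293 and 2032 in WT hippocampus, which overlap, with a ratio of 0.876. H2B genes summed to a ratio of 0.855 and H3 genes to 0.606, both without overlap. All 58 genes summed to 8021, 8497 and 8343 in KO hippocampus, against 10944, 10589 and 10291 in WT hippocampus, a ratio of 0.781.

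**Figure D4:**
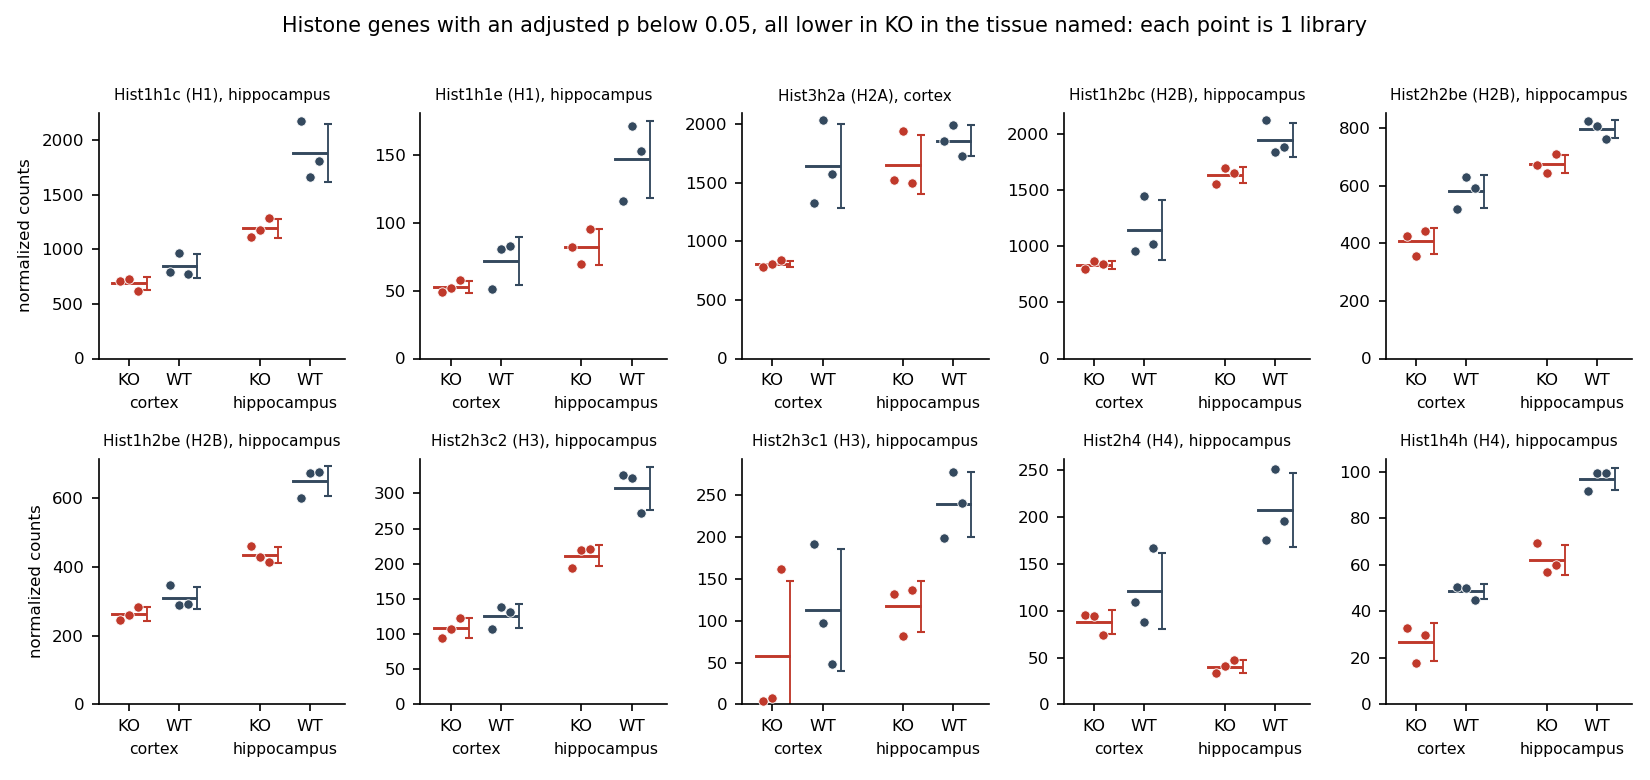
Normalized counts per library of the 10 histone genes called in either tissue, with means as lines and SD as error bars (n = 3), KO left of WT; the panel title names the histone type and the tissue of the call. In the tissue named every KO point lies below every WT point.

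**Figure D5:**
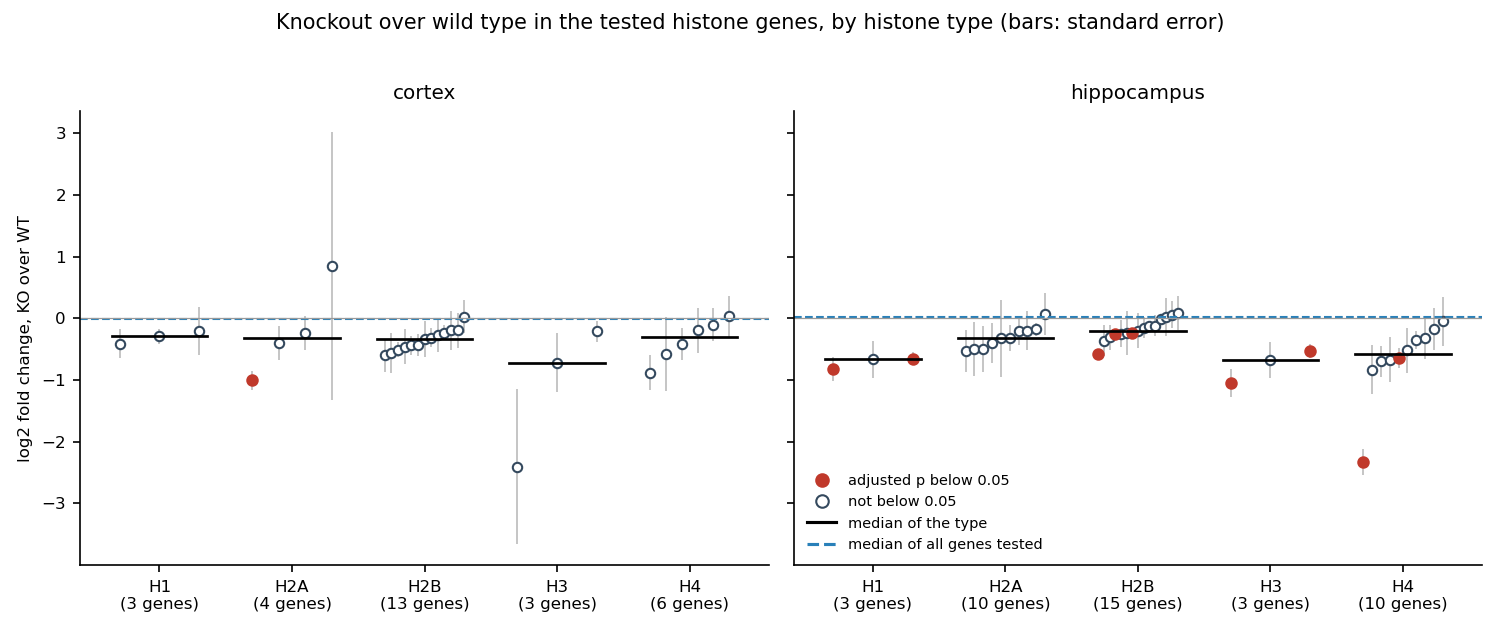
Log2 fold change of KO over WT (± SE) of each tested histone gene by type in each tissue, filled where the adjusted p is below 0.05; black lines are medians of the type and the dashed line the median of all genes tested. Of 29 genes in cortex 26 lie below zero, against 52.1% of all genes tested, and of 41 in hippocampus 37, against 48.0%. Hist2h4 in hippocampus is at -2.33.

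By annotated 3′ end, calls in hippocampus fell on 6 of 19 tested genes annotated far past the stem-loop, on 1 of 13 that end near it and on 2 of 9 without a match, where 15.1% of all genes were called lower. The medians of the log2 fold changes were -0.49, -0.25 and -0.25, and in cortex -0.40, -0.27 and -0.31. By share of unique windows, 8 of the 26 tested genes with at least 50% were called in hippocampus and 1 of 15 with less. The differences between these classes were not tested, and the classes also differ in level, which bears on what passes.

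Whether the genotype difference itself differs between the tissues was tested in 1 fit over all 12 libraries, for 29 members. Of these, 2 were called, against 3.02% of all 21282 genes, 0.963% lower and 2.05% higher. Hist2h4 had a difference of 1.91 ± 0.34 on the log2 scale (cortex effect minus hippocampus effect, limma, adjusted p = 0.0165), that is, it was lower in KO hippocampus by more than in KO cortex. Hist3h2a had -0.83 ± 0.20 (limma, adjusted p = 0.0474), lower in KO cortex by more than in KO hippocampus. The Hist3h2a call was lost in 14 of 20 alternatives, with adjusted p-values up to 0.126, among them without any one library other than WT cortex libraries 1 and 2. That of Hist2h4 was lost in 2, among them without KO cortex library 2, with adjusted p-values up to 0.0751. For the other tested members, called or not in a tissue, no difference between the tissues is shown.

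Genes that make, process or read histone mRNA were counted from a list of 24. In KO cortex 0 of 24 were called, and their median log2 fold change was 0.01. In KO hippocampus 3 fell and 4 rose, a share of calls near the 29.2% of all genes called there. Several long genes are named here, and their values with the trend over exonic length taken out stand beside them. Pou2f1, which encodes the octamer-binding factor Oct-1 that acts at H2B promoters, averaged 1356 ± 68.4 normalized counts in KO hippocampus and 2542 ± 70.2 in WT hippocampus (SD, n = 3 each), a log2 fold change of -0.91 ± 0.05 (limma, adjusted p = 4.42e-05), and of -0.42 ± 0.06 without the length trend over its 16597 bases of exon (limma, adjusted p = 0.00229). Snrpd3, a core protein of small nuclear ribonucleoproteins, rose by 0.29 ± 0.04 (limma, adjusted p = 0.00161), and Tut4, an RNA uridylyltransferase, fell by 0.34 ± 0.06 (limma, adjusted p = 0.0052), a call lost without the length trend (limma, adjusted p = 0.121). Slbp averaged 1004 ± 43.5 in KO hippocampus and 933 ± 30.4 in WT hippocampus, and 1228 ± 66.9 in KO cortex and 1269 ± 124 in WT cortex, with adjusted p-values of 0.22 and 0.826 by limma.

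Replacement histone variants are made outside replication. Of 11 such genes, 0 were called in KO cortex, where all 11 had negative fold changes with a median of -0.20, and 2 rose in KO hippocampus, where the median was 0.06. H2afx, whose protein is phosphorylated at DNA breaks, rose by 0.22 ± 0.05 (limma, adjusted p = 0.0115), and H3f3b, an H3.3 gene, by 0.20 ± 0.06 (limma, adjusted p = 0.0327). Their summed level was 42962 to 44545 in KO hippocampus and 41059 to 41556 in WT hippocampus, and 34723 to 35386 in KO cortex and 36635 to 43335 in WT cortex. In hippocampus the summed replacement variants lay above WT and the summed clustered genes below. H3f3b, the highest gene of that sum, averaged 11137 in KO hippocampus and 9658 in WT hippocampus. By gene, 8 of the 11 were positive and 3 negative there, and the median of 0.06 lay near the 0.02 over all genes. Over all genes 14.1% were called higher in hippocampus, beside the 2 of 11.

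Of 29 histone chaperones, 6 fell and 12 rose in KO hippocampus, with a median of 0.13, and 1 fell in KO cortex, Ubn2, a subunit of the HIRA complex, by 0.52 ± 0.09 (limma, adjusted p = 0.0451), and by 0.41 ± 0.08 without the length trend (limma, adjusted p = 0.0248). Atrx, a chromatin remodeller that deposits H3.3, averaged 7710 ± 432 in KO hippocampus and 13456 ± 411 in WT hippocampus (SD, n = 3 each), a log2 fold change of -0.80 ± 0.05 (limma, adjusted p = 5.26e-05). Without the length trend over its 21757 bases of exon it was -0.22 ± 0.05 (limma, adjusted p = 0.0104). DNA replication and cell division genes, whose activity marks dividing cells, gave 1 higher call of 30 tested in KO cortex. In KO hippocampus they gave 1 lower and 3 higher calls of 31. Over all genes tested, 1.94% were called in cortex and 29.2% in hippocampus. Mki67, a proliferation marker, fell by 0.61 ± 0.13 in KO hippocampus (limma, adjusted p = 0.0104), a call lost without the length trend (limma, adjusted p = 0.0766), while Pcna, the replication clamp, rose by 0.24 ± 0.05 (limma, adjusted p = 0.0112). The summed list was 11819 to 12529 in KO hippocampus and 11153 to 11215 in WT hippocampus. Abundant genes weigh most in that sum: over the hippocampus libraries Pcna averaged 2054 normalized counts and Mki67 199. Of the 31 tested there, 10 had negative and 21 positive fold changes, with a median of 0.08. The part of dividing cells in the histone values was not tested.

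Short RNAs that, like replication-dependent histone mRNA, have no poly(A) tail were counted from a list of 18, of which 13 averaged under 10 normalized counts in cortex and 12 in hippocampus. The list summed to 373 to 377 in KO cortex and 489 to 582 in WT cortex, without overlap. In hippocampus it summed to 382 to 649 in KO and 468 to 561 in WT, which overlap. In KO cortex 1 of 5 tested was called: Rn7sk, the 7SK RNA, fell by 1.09 ± 0.18 (limma, adjusted p = 0.0424). In KO hippocampus 1 of 6 tested was called: Scarna6 fell by 1.87 ± 0.56 (limma, adjusted p = 0.0416). Its level was low, 4.16 ± 3.15 normalized counts in KO and 16.7 ± 7.07 in WT hippocampus (SD, n = 3 each). Among all genes tested, 1.94% were called in cortex and 29.2% in hippocampus. The part of these RNAs in the histone values was not tested.

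Markers of newborn cells gave calls in both directions in hippocampus. Of 12 immature neuron and progenitor markers, 2 fell and 3 rose in KO hippocampus, with a median of 0.11. By sign, 8 were positive and 4 negative. Dcx, a marker of migrating neurons, fell by 0.83 ± 0.10 (limma, adjusted p = 0.00111), and by 0.46 ± 0.10 without the length trend (limma, adjusted p = 0.0112). Sox11 fell by 0.34 ± 0.09 (limma, adjusted p = 0.0314), a call lost without the length trend (limma, adjusted p = 0.265). Dlx2 rose by 0.40 ± 0.09 (limma, adjusted p = 0.0159). The sum of the 12 markers overlapped, with 10099 to 11835 in KO hippocampus and 10563 to 11319 in WT hippocampus. In cortex 0 of 11 were called, with a median of -0.25, and the sum was 8502 to 10006 in KO and 10734 to 11680 in WT. Of 12 microglia markers, 10 rose in KO hippocampus and 1 rose in KO cortex. Of 15 blood and bone marrow cell markers, 12 tested, 3 fell in KO hippocampus and 1 of 11 in KO cortex; S100a9, a neutrophil gene, averaged 14.4 ± 3.25 normalized counts in KO hippocampus and 39.3 ± 9.61 in WT hippocampus (SD, n = 3 each). For comparison, 29.2% of all genes tested were called in hippocampus, 15.1% lower and 14.1% higher, and 1.94% in cortex. The 3 of 12 blood and bone marrow cell markers called in hippocampus are near that share. The part of these cells in the histone values was not tested.

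The profile over the 6 libraries of a tissue that was most like the summed histone level belonged, among 15738 tested protein-coding genes in cortex, to Timmdc1 (Pearson r 0.996 on the log2 scale), S100a6 (0.994) and Rmdn3 (0.994), and 522 genes exceeded 0.9. In hippocampus it belonged to Gm4631 (0.999), Zbtb26 (0.997) and Myh9 (0.996) among 15926, and 1649 exceeded 0.9. The 6 libraries are 3 of each genotype, so the genotype difference enters each r, and these are descriptions.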

How the data were processed

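RNA of 12 mouse brain libraries was sequenced, 3 for each of 4 groups. The authors deposited 1 table per tissue whose values are a signal, named normalized counts; per the submitters' processing notes the tools were STAR, HTSeq and DESeq2 and the build GRCm38; the sources used here give no versions. In every library all values were whole multiples of 1 step within 0.001. In 10 libraries the multiples were recovered as whole reads; in WT cortex libraries 1 and 2 the step is near 1 and this could not be checked.

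Members were matched to GENCODE M21 by gene ID. The files hold normalized values, so limma 3.58.1 (R 4.3.3, trended prior) was fitted to log2(normalized count + 1) over all genes with a mean of at least 10, per tissue, and over 12 libraries for the difference between tissues. Level per kb divides by the union of annotated exons. Alternatives were other filters, pseudocounts (0.5 and 5), prior, scaling, a length trend, a replicate block, edgeR 4.0.16 and DESeq2 1.42.0 on recovered reads in hippocampus, and leaving out each library. The fits were tested on simulated data. Named genes were Tert, members called in any test, the 2 highest members of each type, and at most 3 called genes of each other list. Hist1h4k and some others were named after their values were seen. The members and lists were chosen with earlier results of these data known.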

Additional observations from a re-analysis of the deposited data

Results flagged for a closer look

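Among the histone genes, 2 differed between the tissues in their gap between KO and WT libraries, by the test of that difference itself. Markers of neighbouring tissue also differed between KO and WT, and their part in this was not tested. Hist2h4 had a difference of 1.91 on the log2 scale (cortex effect minus hippocampus effect, limma): it fell by 2.33 in KO hippocampus and had -0.42 in KO cortex, where KO and WT overlap. Hist3h2a had a difference of -0.83: it fell by 1.00 in KO cortex and had -0.18 in KO hippocampus, where KO and WT overlap. That call was lost in 14 of 20 alternatives. Summed with the overlapping Trim17, Hist3h2a had 1955, 2100 and 2089 in KO cortex, against 2460, 2558 and 2314 in WT cortex, and 2938, 2736 and 2791 in KO hippocampus, against 3131, 3367 and 3175 in WT hippocampus, lower in KO in both tissues. The difference between the tissues in Hist3h2a alone is therefore uncertain.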

How the results depend on the processing

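The median log2 fold change of the tested members stayed negative in both tissues under all alternatives; in hippocampus it moved to -0.11 with quantile normalization (all genes 0.09) and to -0.18 with the length trend removed (all genes 0.14). The cause of the first was not tested. In cortex the count of called members, 1, was 0 without a filter, without the variance trend and with the replicate block, and 0 to 3 with a library left out, 3 without WT library 2. In hippocampus, 9 became 6 with the replicate block or quantile normalization, 7 with the length trend removed, 10 with either other filter, 9 with edgeR and with DESeq2, and 5 to 9 with a library left out, 5 without WT library 3. For the difference, 2 became 1 with either other filter or without the variance trend, 0 with the replicate block and 0 to 2 with a library left out. The labels do not say whether same-numbered libraries belong together. Deviations of same-numbered KO and WT libraries correlated by -0.06 to 0.00 in cortex and -0.03 to 0.09 in hippocampus. Between the tissues, those of same-numbered KO libraries correlated by -0.09 to -0.02 and those of WT libraries by -0.03 to 0.06. With so few libraries per group, these values cannot show whether libraries share an animal.

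Some fold changes changed sign, all uncalled. Hist1h4i in cortex became 0.035 with quantile normalization and 0.021 with the length trend removed, and lay between -0.26 and 0.11 with a library left out. Hist3h2ba in hippocampus became 0.043 and 0.13 with those settings, and lay between -0.066 and 0.035 with a library left out. With a library left out, the difference between tissues lay between -0.33 and 0.078 for Hist1h2ac, between -0.41 and 0.028 for Hist1h4h, and between -0.29 and 0.0041 for Hist1h2bc. Where a group is left with 2 libraries the spread is pooled over groups. Count tests in cortex, planned with edgeR and DESeq2, were not run, because whole reads could not be checked in 2 of its libraries. Genes under 10 normalized counts, 29 members in cortex and 17 in hippocampus, were below the depth tested.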

Other observations

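Markers of some other cell types were called, where 29.2% of all genes were called in hippocampus and 1.94% in cortex. In KO hippocampus 5 of 8 oligodendrocyte markers rose, with a median log2 fold change of 0.22, among them Mag, a myelin glycoprotein gene, by 0.28 ± 0.05 (limma, adjusted p = 0.00821). Of 8 astrocyte markers 4 rose and 1 fell there, the fall of Slc1a2 being lost without the length trend (limma, adjusted p = 0.989), and Gfap, the astrocyte intermediate filament, rose by 0.26 ± 0.04 in KO hippocampus (limma, adjusted p = 0.00403) and fell by 0.31 ± 0.06 in KO cortex (limma, adjusted p = 0.0497). Of 7 neuron markers 5 rose in KO hippocampus and 1 in KO cortex. Of 10 oligodendrocyte precursor markers 2 rose and 1 fell in KO hippocampus, a share near that of all genes, and 0 were called in KO cortex. Of 10 meningeal fibroblast markers 1 fell in KO cortex, with a median of -0.63, and 0 were called in KO hippocampus. Of 10 endothelial markers 1 rose in KO cortex and 0 were called in KO hippocampus. Their part in the histone values was not tested.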
